A study of Sus scrofa with 10 samples.

Results

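Probe sets of 5 liver enzymes that modify steroids and related small molecules, *HSD17B2*, *SULT1A3*, *CBR1*, *HSD11B1* and *SULT2A1*, were described in the livers of 10 pigs. A probe set was taken when the platform annotation gave it exactly 1 of these symbols and no other, which found 6 of the 23999 porcine probe sets on the array, with 2 for *HSD17B2* and 1 for each other gene, and so 5 of the 6765 genes named by a probe set of their own. The genes were chosen by name with the values of these 10 arrays already known, including the single animals that stand apart, so the values below are a description and carry no test of the choice. Liver RNA came from 5 H and 5 L females of an Iberian by Landrace backcross, raised and fed alike and slaughtered at about the same age, and each was hybridised to 1 Affymetrix GeneChip Porcine array. H females had a high and L females a low score on the principal component that ranked the animals by the fatty acid composition of their muscle, and no treatment is named for either group. The H animals are called H1 to H5 and the L animals L1 to L5. The animals of 1 cross were related to each other, and the paper kept some full sibs and maternal half-sibs in opposite groups. The labels do not name these animals, and kinship could not be modelled.

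Steroid hormones are cleared mainly in the liver, where hydroxysteroid dehydrogenases and carbonyl reductases change the oxygen groups that give a steroid its activity, and sulfotransferases attach a sulfate that makes it soluble and inactive. *HSD17B2* oxidises estradiol to estrone and testosterone to androstenedione, both weaker hormones. *SULT2A1*, which sulfates hydroxysteroids such as DHEA and bile acids, and *SULT1A3* add the sulfate. The pig gene called *SULT1A3* by the annotation also carries the synonym *SULT1A1* in the reference table. In human, *SULT1A3* sulfates dopamine and *SULT1A1* a wide range of phenols, and which of these roles the pig gene has is not settled by the files. *CBR1* is an NADPH-dependent carbonyl reductase of prostaglandins, quinones and other carbonyl compounds. *HSD11B1* is the exception in direction, since in liver it works mainly as a reductase that regenerates active cortisol from cortisone. In a bulk liver sample, fewer cells of a type and less RNA per cell cannot be told apart.

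The values are log2 intensities after the GCRMA background adjustment, in which the lowest value of all arrays is 2.19, and a difference of 1 is a doubling of the adjusted intensity. Array medians lay between 3.78 and 3.85 and any 2 arrays correlated with r of 0.990 to 0.996. H4, the animal on which much of what follows turns, did not stand apart as an array: its mean correlation with the other 9 arrays was 0.991, where those of the other animals were 0.991 to 0.993. Its *GAPDH* 3′ minus 5′ difference, a measure of RNA integrity, was 1.86, within the 1.68 to 2.70 of the other 9.

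*HSD17B2* was strongly expressed in 9 livers and nearly absent from the array signal of 1. Its probe set Ssc.14073.1.S1_at read 10.68, 11.38, 12.15, 3.73 and 11.04 in H1 to H5, and 11.72, 10.99, 10.68, 11.20 and 11.91 in L1 to L5. The low value belonged to H4, which lay 6.94 below the next lowest animal and 7.46 below the median of the other 9. The other 4 H animals and the 5 L animals overlapped throughout.

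The other *HSD17B2* probe set, Ssc.14073.2.S1_at, showed the same animal at the bottom. It read 9.28, 9.31, 11.12, 2.69 and 9.85 in H1 to H5, and 9.53, 10.04, 9.13, 9.69 and 10.50 in L1 to L5. H4 was 6.44 below the next lowest animal and 6.99 below the median of the other 9, and only 0.51 above the lowest value on the arrays. Values this close to the bottom of the scale are compressed, so no fold change is given for *HSD17B2* in H4. The lowest value that a probe set can take also differs between probe sets. *HSD17B14*, another 17β-hydroxysteroid dehydrogenase, named after its values were seen, was at 3.07 in H4 and did not leave 3.07 to 3.08 in the other 9. Over the 9 animals other than H4 the *HSD17B2* probe sets correlated with r of 0.76.

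*SULT1A3* was also lowest in H4. It read 10.50, 10.80, 10.63, 5.93 and 9.97 in H1 to H5, and 10.63, 10.63, 10.12, 10.56 and 11.14 in L1 to L5. H4 lay 4.04 below the next lowest animal and 4.70 below the median of the other 9, a 26-fold difference. That value lay 3.74 above the lowest on the arrays, and the remaining H animals overlapped with the L animals.

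*CBR1* ran the other way, with H4 the highest. It read 7.07, 4.83, 7.16, 10.65 and 6.33 in H1 to H5, and 5.30, 7.22, 5.50, 6.83 and 3.49 in L1 to L5. H4 lay 3.43 above the next highest animal and 4.32 above the median of the other 9, a 20-fold difference. *CBR1* also differed widely between the animals other than H4, where the lowest was L5 and the highest L2.

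*HSD11B1* had the smallest spread of the members. It read 14.42, 14.38, 14.43, 14.48 and 14.50 in H1 to H5, and 14.46, 14.43, 14.50, 14.48 and 14.42 in L1 to L5. H4 was 0.05 above the median of the other 9 and inside their range. The mean of this probe set was higher than that of 99.5% of the probe sets tested, and whether differences are compressed at this end of the scale was not tested.

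*SULT2A1* varied moderately, and its lowest animal was H5, not H4. It read 13.44, 13.90, 13.97, 13.20 and 12.83 in H1 to H5, and 13.69, 13.48, 13.69, 13.72 and 13.43 in L1 to L5. The 5 L animals lay within the wider range of the H animals. H4 was 0.48 below the median of the other 9.

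**Figure D1:**
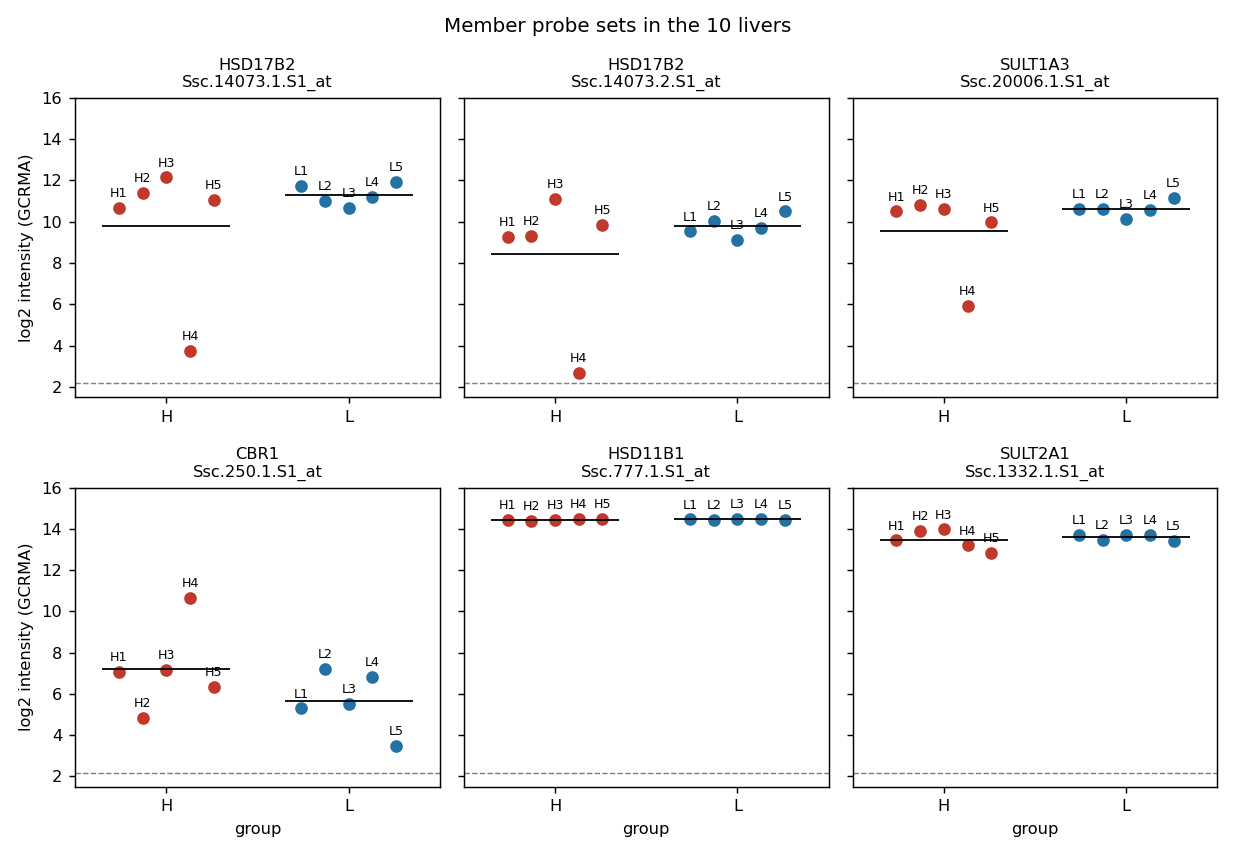
Log2 intensity (GCRMA) of the 6 probe sets in each H animal (red, left) and L animal (blue, right), with a line at each group mean and a dashed line at 2.19, the lowest value on the arrays. H4 reads 3.73 and 2.69 in the *HSD17B2* probe sets, 5.93 in *SULT1A3* and 10.65 in *CBR1*, apart from the other 9 animals each time, and lies among them in *HSD11B1* and *SULT2A1*.

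Few probe sets set H4 so far from the other animals. Of the 23999 porcine probe sets, 5 (0.0208%) had H4 at least 2 log2 units below every other animal and 4 (0.0167%) had it at least 2 above. *HSD17B2* ranked 1 and 2 and *SULT1A3* ranked 4 by distance on the low side, and *CBR1* ranked 3 on the high side, but the members were selected on such values and these ranks are no independent evidence. The others on the low side were *CYP2A19*, the pig counterpart of a human nicotine and coumarin hydroxylase, at 7.98 in H4 against 12.23 to 14.25 in the other 9, and *CRP*, C-reactive protein of the acute-phase response, at 9.08 against 11.65 to 13.08. On the high side they were *CYP2C36*, a P450 of the drug-metabolising 2C family, at 11.17 in H4 against 2.53 to 6.28, *PNPLA3*, a lipid droplet protein, at 5.94 against 2.19 to 2.35, and a probe set with 2 symbols. These 4 genes were named after their values were seen. H5 also had 5 probe sets at least 2 below every other animal, and none above, so H4 is not alone in having such probe sets; every other animal had at most 2 below and 3 above.

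An on-off pattern, with at least 1 animal within 0.5 of the lowest value and at least 1 animal 3 or more above it, was met by 55 of 23999 probe sets (0.229%) and by 0 of the 6 members. Of *HSD17B2*, Ssc.14073.2.S1_at misses it narrowly, 0.51 above the lowest value in H4, and meets the pattern when the limit is 1. Ssc.14073.1.S1_at, 1.55 above the lowest value in H4, does not meet it even then. The pattern is set by the lowest value of all arrays, and the lowest value that a probe set can take differs between probe sets. The counts depend on that choice. Within H, an animal lay beyond Dixon's limit for a group of 5 in 3 of the 6 member probe sets, both of *HSD17B2* and that of *SULT1A3*, each time H4, beside 10.9% of the 11756 probe sets tested. Within L no member probe set did, beside 10.5%. *CBR1* did not pass the limit within H, where the other 4 animals spread from 4.83 to 7.16.

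The question of the design is whether H and L livers differ. Of 11756 probe sets averaging 4 or more over the 10 arrays, limma with Benjamini-Hochberg adjustment called 0 (0%) at an adjusted p of 0.05, and no adjusted p was below 0.991. Before adjustment 363 probe sets had a p under 0.05, 155 higher and 208 lower in H; the balance turned under quantile normalization, with 197 higher and 158 lower, and with each array centred on its median, with 183 higher and 164 lower. An absolute log2 difference of at least 1 was found in 31 (0.264%), among them 4 of the 6 member probe sets, which were chosen with these differences known. H and L animals did not overlap in 48 probe sets (0.408%), and they overlapped in all 6 members.

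For Ssc.14073.1.S1_at of *HSD17B2* the mean and SD over 5 animals were 9.80 ± 3.43 in H and 11.30 ± 0.51 in L, a difference of -1.50 with a standard error of 1.38. For Ssc.14073.2.S1_at the means were 8.45 ± 3.30 in H and 9.78 ± 0.52 in L, a difference of -1.33 with a standard error of 1.33. Without H4 these differences were 0.01 with a standard error of 0.34 and 0.11 with a standard error of 0.41, so the lower H mean came with that animal.

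*SULT1A3* had a mean of 9.57 ± 2.06 in H livers and of 10.62 ± 0.36 in L livers (SD, n = 5 each), a difference of -1.05 with a standard error of 0.83, and -0.14 with a standard error of 0.22 without H4. *CBR1* had 7.21 ± 2.14 in H livers and 5.67 ± 1.47 in L livers, a difference of 1.54 with a standard error of 1.03, and 0.68 with a standard error of 0.77 without H4. In *CBR1* the lowest animals of each group, H2 at 4.83 and L5 at 3.49, also lay well away from their group means.

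*HSD11B1* had a mean of 14.44 ± 0.05 in H livers and of 14.46 ± 0.03 in L livers (SD, n = 5 each), a difference of -0.02 whose 95% interval ran from -0.15 to 0.12. *SULT2A1* had 13.47 ± 0.48 in H livers and 13.60 ± 0.14 in L livers, a difference of -0.13 with an interval of -0.59 to 0.32. The intervals of the other members were far wider, -4.56 to 1.56 and -4.28 to 1.62 for *HSD17B2*, -2.90 to 0.79 for *SULT1A3* and -0.75 to 3.83 for *CBR1*; for those 3 genes the intervals hold differences of over 1 log2 unit. All 6 had a limma adjusted p of 0.991.

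**Figure D2:**
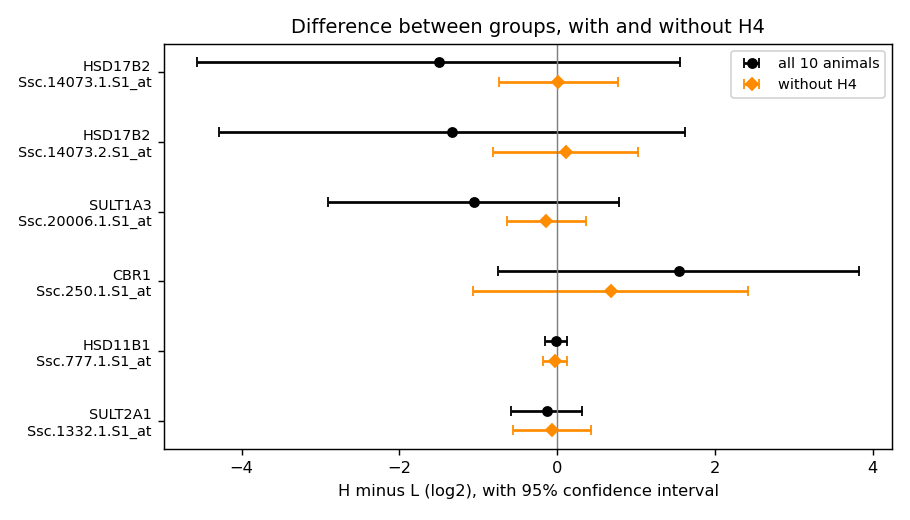
H minus L in log2 units with 95% confidence intervals from limma, for each member probe set with all 10 animals (black circles) and without H4 (orange diamonds). Without H4 the *HSD17B2* differences move to 0.01 and 0.11 and that of *SULT1A3* to -0.14, and *CBR1* keeps 0.68.

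The spread over all 10 animals was large in *HSD17B2*, *CBR1* and *SULT1A3* and small in *HSD11B1*. The members were chosen with these values known, so their place among the probe sets is no independent evidence. The SD was 2.44 and 2.34 for *HSD17B2*, 1.91 for *CBR1* and 1.5 for *SULT1A3*, higher than in 99.9%, 99.9%, 99.8% and 99.7% of the probe sets tested, against a median of 0.24. *HSD11B1*, with an SD of 0.04, was higher than only 0.885%, and *SULT2A1*, with 0.34, higher than 74%. Over the 9 animals other than H4, *CBR1* still had an SD of 1.28, higher than in 99.6%, while *HSD17B2* came to 0.53 and 0.65 and *SULT1A3* to 0.35, beside a median of 0.23. Without H4, *CBR1* is thus the member whose probe set varies most between livers. Its mean over the 10 animals was higher than that of only 30.6% of the probe sets tested. Its lowest animal, L5 at 3.49, lay 1.31 above the lowest value on the arrays. How far such low values shape its spread was not tested.

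A second probe set that lists *CBR1*, Ssc.22000.1.S1_at, was left out because it also names LOC100622246, the neighbouring gene, which the reference table calls by the synonym *CBR3*. It read 11.10, 10.14, 10.36, 10.19 and 11.08 in H1 to H5, and 10.60, 10.99, 10.44, 11.07 and 10.23 in L1 to L5. H4 was not high there: it was among the 3 lowest, with H2 and L5. Over the other 9 animals its correlation with the *CBR1* probe set did not pass the threshold after adjustment (r = 0.704, exact permutation p = 0.0332, adjusted p = 0.182; rho = 0.550), and r was 0.423 once the 2 animals farthest from the *CBR1* median were left out.

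The plot of pairs of probe sets shows how far H4 determines relations between members. Because *HSD17B2*, *SULT1A3* and *CBR1* set H4 apart from the rest, their relations were taken over the other 9 animals, a choice made after seeing the data. Of 11 relations, 10 between pairs of members and that of *CBR1* with the left-out probe set, none had an adjusted p under 0.05 for r or rho. *HSD17B2* and *SULT1A3* had r of 0.625 (exact permutation p = 0.0704, adjusted p = 0.258) and rho of 0.783 (exact permutation p = 0.0172, adjusted p = 0.189), and r was 0.517 once the 2 animals farthest from the *HSD17B2* median were left out. *SULT1A3* and *HSD11B1* had r of -0.740 (exact permutation p = 0.0212, adjusted p = 0.182) and rho of -0.683 (exact permutation p = 0.0503, adjusted p = 0.277). *HSD11B1* and *SULT2A1*, which do not set H4 apart, had r of -0.466 (permutation p = 0.179) and rho of -0.224 (permutation p = 0.536) over all 10 animals, and r of -0.502 without the 2 farthest.

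**Figure D3:**
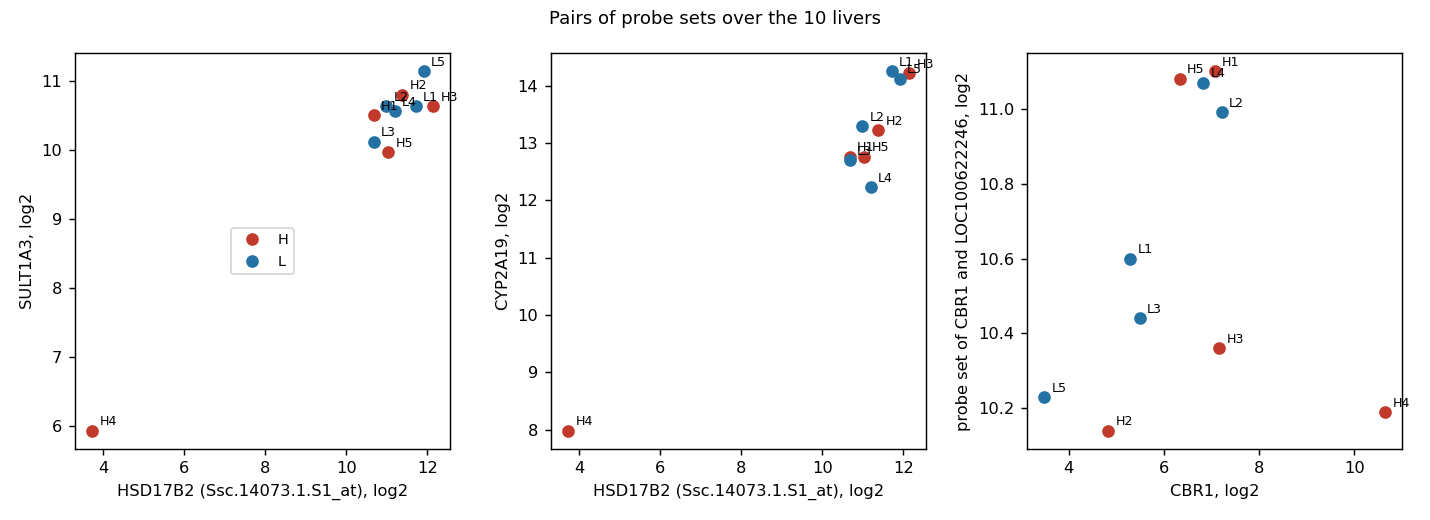
Log2 intensity of *SULT1A3* against *HSD17B2* (left), *CYP2A19* against *HSD17B2* (middle) and the left-out probe set of *CBR1* and LOC100622246 against *CBR1* (right), with 1 point per H animal (red) and L animal (blue). H4 lies alone at the bottom left of the first pair of plots, and at the right of the last, where *CBR1* reads 10.65 and the left-out probe set 10.19.

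The genes whose pattern over the 10 animals was most like that of each member were taken by Pearson's r, given as a description without p, since all points share the same 10 arrays. For *HSD17B2* they were *SULT1A3* (r = 0.983), *TGFB1* (0.972) and *CYP2A19* (0.968), and without H4 these values were 0.63, -0.19 and 0.83. *TGFB1*, a growth factor of fibrosis, read 5.11 in H4 and 5.40 to 5.42 in the other 9, so its likeness rests on 1 animal. For *SULT1A3* they were *HSD17B2* (0.983), *TGFB1* (0.959) and *PHLDB1* (0.953), at 0.63, -0.63 and 0.72 without H4, so that of *TGFB1* turned in sign. For *CBR1* they were *TYW3* (0.907), *NIP7* (0.901) and *NUP133* (0.897), at 0.76, 0.74 and 0.82 without H4. For *HSD11B1* they were *ISOC2* (0.931), *CNIH1* (0.925) and *ATP2A2* (0.867), and for *SULT2A1* they were *MAP3K4* (0.903), *GLT8D1* (0.902) and *DUSP1* (0.897), a phosphatase gene induced by glucocorticoids and stress. *DUSP1* was lowest in H5 at 10.07, the animal lowest in *SULT2A1*, and highest in H3 at 11.52, the animal highest in it.

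The rest of the pathway was read from 8 lists of steroid, conjugation and regulatory genes, of which 59 genes were tested. None had a limma adjusted p under 0.05, and 2 had an unadjusted p under 0.05. The median difference of the lists lay between -0.09 for sulfation and 0.14 for genes of the glucocorticoid response, beside -0.022 over all probe sets tested. H4 was the lowest animal in 13 of the 59 (22%) and the highest in 8 (13.6%), beside 12.3% and 10.8% of all 11756 probe sets.

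Among hydroxysteroid dehydrogenases and their partners, 7 of 22 listed genes were tested and H4 was lowest in 2. *HSD3B1*, of the 3β-hydroxysteroid dehydrogenase family, read 8.77, 9.12, 9.17, 6.72 and 9.0 in H1 to H5, against 8.37 to 9.10 in L, so only H4 lay below the L animals. *HSD17B10*, a mitochondrial dehydrogenase, read 11.30 in H4 and 11.43 to 12.01 in the other 9. *HSD17B7*, of cholesterol synthesis, differed by 0.27 with a standard error of 0.25.

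Of the carbonyl, aldo-keto and steroid 5-reductases, 4 of 16 were tested. *DHRS4*, an NADPH-dependent carbonyl reductase, had H4 at the top as *CBR1* did, at 10.03 against 7.76 to 8.92 in the other 9, whereas *AKR1C1*, an aldo-keto reductase, had H4 at the bottom, at 5.21 against 5.81 to 7.25. Both were named after their values were seen. The largest differences between groups were 0.15 for *AKR7A2* (standard error 0.23) and -0.11 for *AKR1A1* (standard error 0.22).

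Of 23 genes of sulfation, 8 were tested. *SULT1E1*, the estrogen sulfotransferase, read 13.16, 12.64, 12.63, 13.25 and 12.78 in H1 to H5, and 12.33, 12.66, 12.28, 12.31 and 12.91 in L1 to L5. It differed by 0.39 with a standard error of 0.17 and a limma adjusted p of 0.991, and H4 was the highest animal, the opposite end from *SULT1A3*. *ARSA*, the lysosomal arylsulfatase, differed by -0.27 with a standard error of 0.16. Of the enzymes that make the sulfate donor PAPS, *PAPSS2* was lowest in H4, at 8.64 against 9.53 to 10.36 in the other 9, and *PAPSS1* was lowest in H1 at 6.47. *PAPSS2* was named after its values were seen.

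Only 2 of 15 genes of glucuronidation were tested, *UGP2* and *UGT2B31*, which differed by 0.11 (standard error 0.10) and 0.05 (standard error 0.24), with L3 at 12.87 far below the other L animals in *UGT2B31*. Of the P450 enzymes and partners that hydroxylate steroids and clear androstenone, 12 of 17 were tested. *CYP2A19* had a mean of 12.19 ± 2.43 in H livers and of 13.32 ± 0.88 in L livers (SD, n = 5 each), a difference of -1.13 that was -0.08 without H4. *CYP3A22*, of the main drug and steroid hydroxylating P450 family, had the largest difference, 1.61 with a standard error of 1.06. L3 was lowest at 4.42, far below the other L animals at 8.96 to 10.96 and the H animals at 9.27 to 11.45. *CYP2E1*, the ethanol-inducible P450, read 14.41 in H4 and 14.96 to 15.18 in the other 9, and *POR*, the electron donor of these enzymes, was lowest in L3 at 9.85.

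Of the regulators, 8 of 18 were tested. *NR1I2*, the pregnane X receptor that switches on many of these enzymes, read 5.92, 5.91, 5.89, 5.69 and 6.02 in H1 to H5, and 6.25, 6.19, 6.10, 6.71 and 6.06 in L1 to L5. It differed by -0.38 with a standard error of 0.13 and a limma adjusted p of 0.991. The groups did not overlap, as in 48 (0.408%) of the 11756 probe sets tested, and the nearest animals were H5 at 6.02 and L5 at 6.06. *CEBPB*, a liver transcription factor, differed by 0.22 (standard error 0.25), and *HNF4A*, the master regulator of hepatocyte genes, was lowest in L5 at 11.11.

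Of 14 genes of the glucocorticoid response, listed because *HSD11B1* supplies cortisol within the cell, 10 were tested. *FKBP5*, a chaperone induced by glucocorticoids, differed by 0.52 with a standard error of 0.56 and was highest in H4 at 11.59 against 7.94 to 10.95 in the other 9, and *TAT*, tyrosine aminotransferase, differed by 0.45 with a standard error of 0.36. *IGFBP1*, an insulin-repressed binding protein named after its values were seen, read 7.96 in H4 and 9.17 to 13.16 in the other 9. Of the steroid carriers and transporters, *SERPINA6*, the corticosteroid-binding globulin, differed by -0.44 (standard error 0.51) and *SLCO1A2*, an organic anion uptake carrier, by 0.35 (standard error 0.21).

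**Figure D4:**
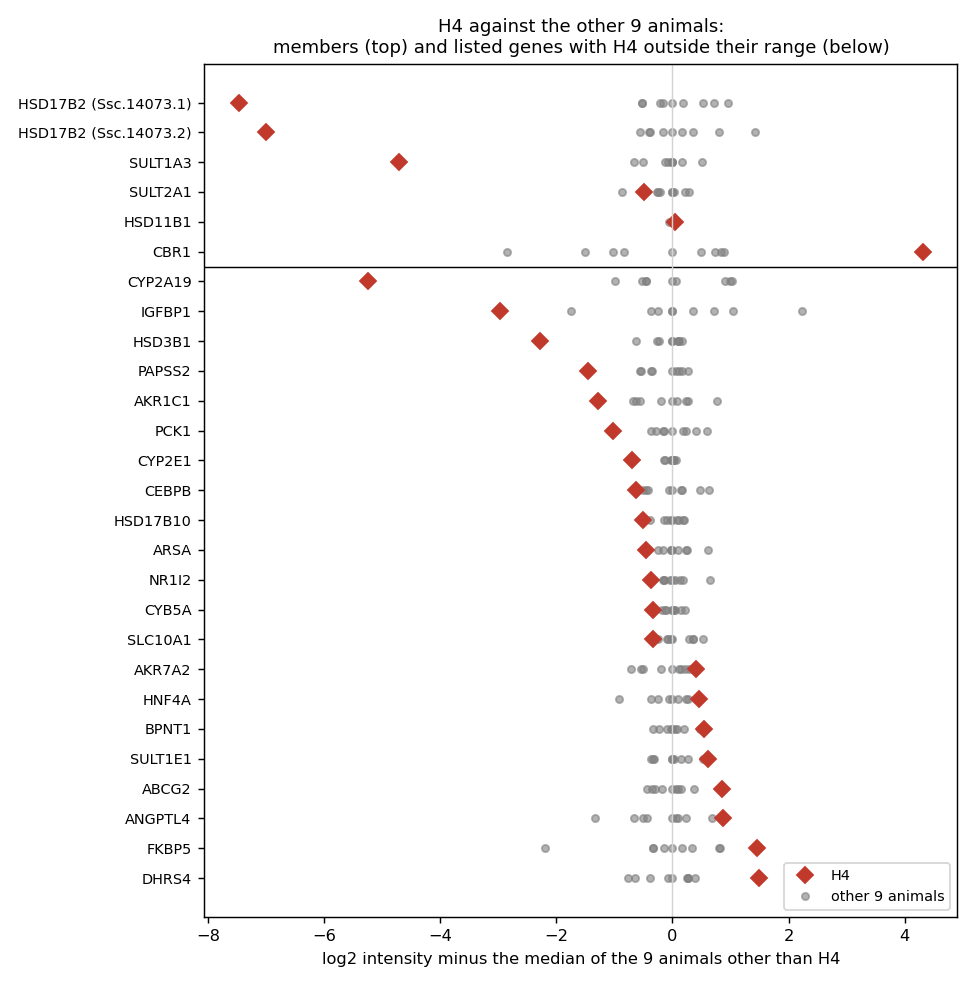
Log2 intensity of each animal minus the median of the 9 animals other than H4, with H4 as red diamonds and the other 9 as grey points. The 6 member probe sets stand above the line and the 21 listed genes in which H4 was lowest (13) or highest (8) below it; outside the members, the farthest are *CYP2A19*, *IGFBP1* and *HSD3B1* on the low side and *DHRS4* and *FKBP5* on the high side.

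The labelled tissue held its markers: 9 of 10 hepatocyte genes were tested, with a list mean of 15.00 to 15.17 in H and 15.06 to 15.14 in L, and 15.04 in H4. The 4 tested Kupffer cell genes had a mean of 9.49 in H4 and 9.48 to 10.27 in the other 9. The 3 of 8 endothelial genes tested had 7.88 and 7.92 to 8.63, and the 2 of 7 cholangiocyte genes tested 7.54 and 6.78 to 7.48. H4 was thus slightly outside the range for the last pair of lists, in which most listed genes were not tested. Of their tested genes only *PECAM1* (8.08 in H4, 8.22 to 8.62 in the other 9) and *SPP1* (8.66, 7.65 to 8.64) put H4 outside. Both were named after their values were seen. The 6 stellate and 2 blood genes put H4 inside the range. Of adrenal cortex markers, which would bring their own steroid enzymes, none of the 3 on the array reached the mean of 4. The part of these lists in the low and high values of H4 was not tested.

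The nearest genes with a tested probe set, 2 on each side of *HSD17B2*, *SULT1A3* and *CBR1* by the gene order of Sscrofa11.1, were read in the same way. They lay 8 to 42 genes from *HSD17B2*, 1 to 6 from *SULT1A3* and 10 to 23 from *CBR1*. H4 was inside the range of the other 9 in 8 of the 12 and below it in the other 4, by at most 0.36. This reading of neighbours was not planned in advance. The neighbours named below are those with H4 outside the range, and they were named after their values were seen. Over all 11756 probe sets tested, H4 was the lowest animal in 12.3% and the highest in 10.8%. Near *SULT2A1*, which did not set H4 apart, *SELENOW* read 6.96 in H4 against 6.63 to 6.84, and *SAE1* 7.84 against 7.94 to 8.40. The other genes read near *SULT2A1* and all those near *HSD11B1* put H4 inside the range. The nearest on each side of *SULT1A3* were both lowest in H4, as *SULT1A3* was, though by far less: *SGF29*, 1 gene away, read 7.86 in H4 and 8.22 to 9.26 in the other 9, and *CORO1A*, 3 genes away, read 5.06 in H4 and 5.40 to 6.73 in the other 9. *WFDC1*, 24 genes from *HSD17B2*, read 6.47 in H4 and 6.66 to 7.63 in the other 9. *CLDN14*, 13 genes from *CBR1*, read 10.04 in H4 and 10.26 to 11.38 in the other 9, low where *CBR1* was high.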

How the data were processed

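Liver RNA of 10 females, 5 H and 5 L, was hybridised to Affymetrix GeneChip Porcine arrays, 1 per animal. GCOS was used by the authors to read the intensities, and GCRMA to correct the background, normalize and summarise them as the deposited log2 values. The tools in the submitters' processing notes (GCOS, GCRMA, RMA) carry no version in the sources used here. Of the table, 124 control probe sets were left out. The number of arrays limits the precision.

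Probe sets were named by the platform annotation (10069 with 1 symbol, 198 with several, 13732 with none). The comparison of H with L used lmFit and eBayes of limma 3.58.1 under R 4.3.3, two-sided and without covariates, for probe sets averaging 4 or more. P-values were Benjamini-Hochberg adjusted at a threshold of 0.05. The fit was also run on simulated independent normal values with known changes. Those values held no kinship and no single animals set apart, so that run does not cover these features of the data. Correlations used permutation tests of 100000 resamples, or exact ones below 10 animals. Alternatives were other filters, normalizations, weights, priors, a *GAPDH* covariate, the replicate block and leaving out each animal.

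The members and lists were chosen with earlier results of these data known. Of each list, genes past the threshold were named, or else the 2 with the largest difference and any animal beyond Dixon's limit within its group; genes named otherwise are marked as chosen after their values were seen. For each gene the probe set with the highest mean was used. Sequences of the probe sets and genes are not used here. H animals and L animals share the numbers 1 to 5, and the labels do not say that a number marks a litter or batch.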

Additional observations from a re-analysis of the deposited data

Results flagged for a closer look

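Several values lay beyond Dixon's limit for a group of 5 animals, a limit that chance passes in about 1 in 20 groups of normal values and that was passed by 10.9% of the tested probe sets within H and 10.5% within L. Among the members, H4 was apart from the other H animals in *HSD17B2*, at 3.73 in Ssc.14073.1.S1_at and 2.69 in Ssc.14073.2.S1_at, and in *SULT1A3*, at 5.93.

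Among the listed genes, H4 was apart within H in *HSD17B10* (11.30), *HSD3B1* (6.72), *CYP2A19* (7.98) and *CYP2E1* (14.41), low each time, and H1 was low in *PAPSS1* (6.47). Within L, L3 was low in *UGT2B31* (12.87) and *POR* (9.85), L5 was low in *HNF4A* (11.11), L4 was high in *NR1I2* (6.71) and L2 was high in *SLCO1A2* (5.30).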

How the results depend on the processing

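No probe set had an adjusted p under 0.05 under any alternative of the fit or when any animal was left out, with counts from 0 to 0. Leaving out 1 animal moved H minus L of *HSD17B2* between -2.09 (without H3) and 0.01 (without H4) for Ssc.14073.1.S1_at and between -2.0 (without H3) and 0.11 (without H4) for Ssc.14073.2.S1_at, that of *SULT1A3* between -1.36 (without H2) and -0.14 (without H4), that of *CBR1* between 0.68 (without H4) and 2.13 (without H2), that of *HSD11B1* between -0.03 and 0.00, and that of *SULT2A1* between -0.25 (without H3) and 0.03 (without H5). Quantile normalization put *HSD11B1* at 0.00; the cause was not tested. On-off probe sets numbered 99, with 1 member, *HSD17B2*, when an animal within 1 of the lowest value counted, and 117 or 26 when the other animal had to lie 2 or 4 above it. With each group centred on its mean, 1 of 11 relations over the 9 animals had an adjusted p under 0.05, *SULT1A3* with *HSD11B1* (r = -0.895, exact permutation p adjusted to 0.0156), though *HSD11B1* spans only 14.38 to 14.50. The fit with the replicate block made 0 calls, with 393 probe sets at an unadjusted p under 0.05. After the group mean of each tested probe set was subtracted, same-numbered H and L animals correlated between -0.22 and 0.39. These correlations, from 1 array per animal, cannot decide whether a number marks a pair.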
